A study of Mus musculus with 3 samples.

Results

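The 45 genes described here are interferon-stimulated genes, taken by name from a list that was chosen with earlier results of these data known. They were read in 22548 genes of a single-cell matrix of dendritic cells from mouse ear-draining lymph nodes. All 45 had at least 1 UMI (unique molecular identifier, 1 counted RNA molecule), and together they held 102094 UMIs, 0.127% of the mRNA UMIs of the kept cells. The mice carried 1 copy of a Cre transgene at Siglech, a ROSA26 allele in which Cre removes a stop and turns on a red fluorescent protein (RFP), and 1 Tnfsf4 knock-in allele, which reports in blue (BFP). SiglechiCreTg/0 ROSA26LoxP-STOP-LoxP-RFP Tnfsf4KI/+ is the full genotype, shared by all 4 populations. RFP therefore marks cells in which, or in whose precursors, this Cre had acted. The labels read here do not state the age, strain, sex or number of the mice. All mice had received MC903, a vitamin D analogue that inflames skin, on days 0, 2 and 4, and their nodes were sorted on day 5. No untreated group was part of the matrix.

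Cells in the sort gate were negative for B220, XCR1 and CD326, had high MHC class II and low to intermediate CD11c. They were divided into cells with both reporters (BFP+RFP+), RFP alone (BFP-RFP+), BFP alone (BFP+RFP-) or neither (BFP-RFP-), given hashtag antibodies 1, 2, 3 and 4 in that order, and pooled as 5200, 5200, 10400 and 5200 cells. Values below follow this order. Oligonucleotide-tagged antibodies to CD11b, CD8a, CD172a and CD301b read 4 surface proteins in the same cells. Of 6079 barcodes, 5023 were kept (82.6%). These had at least 80% of their hashtag UMIs from 1 hashtag, 1000 mRNA UMIs or more and a mitochondrial share of at most 10%. The populations held 842, 982, 2185 and 1014 kept cells with a median of 15182, 14330, 14850 and 13884 mRNA UMIs. Each population is 1 sample from 1 capture, so no comparison below was tested and no p-value is given.

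Type I interferons are secreted when cells sense foreign nucleic acid. Type I interferon acts through a complex that holds STAT2 and IRF9 and binds the interferon-stimulated response element (ISRE), and interferon gamma acts largely through the gamma-activated site (GAS). The induced genes block entry, translation and assembly of viruses, sense nucleic acid, and call in T cells. In dendritic cells the response is known to accompany maturation and to shape T cell priming.

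Promoter windows were read from the RefSeq promoter table of build GRCm38.p6, which holds 250 bases before and 50 after a start. The files use another build, so these coordinates apply to the table alone. Of the 45 genes, 34 matched, with 38 windows. The ISRE letters GAAANNGAAA, on either strand, were in 24 of those 38 windows (63.2%) and in 3.44% of all 32851 windows. The GAS letters TTCNNNGAA were in 21.1% of the 38 windows and 8.30% of all. By role, the ISRE letters were found for 7 of 11 IFIT and effector genes, 3 of 5 Mx and OAS genes, 6 of 7 guanylate-binding and immunity-related GTPases, and 2 of 3 IFITM genes. A match of letters is a description and not a bound site.

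The 5 stretches below are examples picked by name, and not by a ranking of how the genes varied between the cells. Isg15 and Ifitm1 varied together, Ifit1 is a low-abundance gene that varied with Isg15, Igtp belongs to another set of genes, and Gbp5 was abundant and differed little between the populations. Capitals mark the ISRE letters, read on the strand of the gene, 5′ to 3′; the window of Isg15 holds 3 overlapping matches, that of Ifit1 2, those of Igtp and Gbp5 1 each, and that of Ifitm1 none.
Isg15 (chr4:156200825-156200924, minus strand): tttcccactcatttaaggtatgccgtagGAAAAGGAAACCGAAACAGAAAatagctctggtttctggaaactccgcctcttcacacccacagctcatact
Ifit1 (chr19:34640764-34640863, plus strand): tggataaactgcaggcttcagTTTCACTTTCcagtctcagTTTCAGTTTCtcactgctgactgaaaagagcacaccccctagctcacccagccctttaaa
Ifitm1 (chr7:140967976-140968075, plus strand): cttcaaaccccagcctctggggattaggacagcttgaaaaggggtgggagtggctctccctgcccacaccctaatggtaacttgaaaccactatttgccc
Igtp (chr11:58199456-58199555, plus strand): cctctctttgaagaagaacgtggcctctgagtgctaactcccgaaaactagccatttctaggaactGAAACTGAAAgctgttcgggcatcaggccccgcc
Gbp5 (chr3:142496729-142496828, plus strand): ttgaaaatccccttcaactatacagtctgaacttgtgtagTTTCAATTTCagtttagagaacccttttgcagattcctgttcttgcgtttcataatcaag

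The sorted cells had the RNA of migratory dendritic cells. All 11 genes of the migratory dendritic cell list were detected in every population, and they summed to 12749 to 13745 UMIs per 1000000 mRNA UMIs (the unit of every level below, called CPM). Ccr7, the receptor that guides dendritic cells to nodes, stood at 1312 to 1516 CPM. Of the cell types the gate was meant to leave out, the defining markers Xcr1 (type 1 conventional dendritic cells) and Cd207 (Langerhans cells) stood at 0.2 CPM or less. Epcam, the other gene of the Langerhans cell list, stood at 1.34, 3.62, 1.97 and 3.23 CPM. The whole list of 7 type 1 markers, which holds genes that other dendritic cells also express, summed to 111, 172, 70.02 and 105 CPM in the 4 populations, most of it from Wdfy4, Cadm1 and Cd24a, with Clec9a at 0 to 0.941 CPM. Some barcodes also carried markers of another cell type. A barcode was set aside as carrying them when at least 3 genes of 1 marker list had a UMI and summed to at least 10 UMIs, which marked 406 barcodes, 8.08% of those kept and 7.40% to 8.76% of each population. Of these, 66 carried monocyte and macrophage markers, 241 T and NK cell markers, 102 B cell markers and 14 plasmacytoid dendritic cell markers. The 11 monocyte and macrophage genes summed to 48.2, 137, 50.5 and 238 CPM in the 4 populations, and to 11.3, 29.8, 16.6 and 36.7 CPM without these barcodes. The 11 T and NK cell genes summed to 151 to 225 CPM and the 8 B cell genes to 91.5 to 126 CPM.

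These barcodes bear on the interferon-stimulated genes directly. The 45 genes summed to 4513 CPM in the 66 barcodes with macrophage markers, and to 1189 CPM in the 4617 barcodes without markers of another type. Barcodes with T and NK cell, B cell and plasmacytoid markers lay between 1333 and 1550 CPM. Ifitm3 stood at 872 CPM in the macrophage-marked barcodes and 38.5 CPM in unmarked ones, and Cxcl9 at 329 and 6.89 CPM. Mx1 went the other way, at 10.1 and 32.4 CPM. The share of a gene's UMIs that came from marked barcodes ran from 3.36% for Mx1 to 79.7% for Ifi213, a member of the DNA-binding Ifi200 family. It was 71.0% for Iigp1, 64.9% for Ifi204, 62.5% for Irf7, 58.5% for Rtp4 and 56.0% for Cxcl9. Values without marked barcodes are therefore given beside the results, and whether a marked barcode is 1 cell or 2 was not tested. In the summed UMIs of a population, fewer cells expressing a gene and less of its RNA per cell cannot be told apart.

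In sum the genes were lowest in BFP+RFP+ cells. Their summed level was 1019 CPM there, and 1270, 1289 and 1465 CPM in the other populations, in order. The 5 most abundant genes held 54.1% of these UMIs. They were Ifitm2, Gbp5, Bst2, Gbp2 and Ifi27l2a, and none of them reached a log2 ratio of 0.5 in size between populations; the largest was -0.49, for Gbp2. Per cell, the median was 9.25, 9.92, 10.1 and 11.0 UMIs of the 45 genes per 10000, and the highest cell of each population reached 123, 232, 153 and 178. The 1% of cells with most such UMIs held 8.49% of them in BFP+RFP+ cells and 10.9% to 11.6% in the other populations. Of the 45 genes, 24 had at least 500 UMIs and 9 had fewer than 100.

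**Figure D1:**
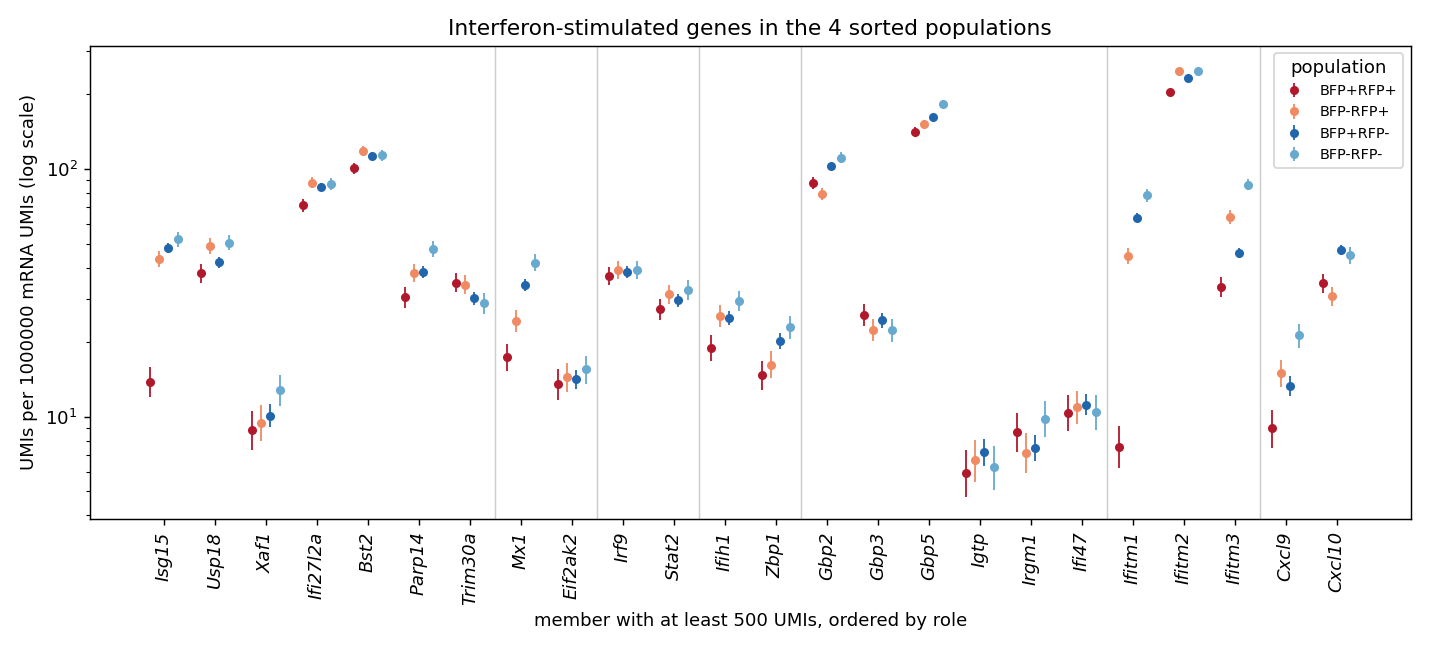
Level of each interferon-stimulated gene with at least 500 UMIs in the 4 sorted populations, in UMIs per 1000000 mRNA UMIs on a log axis, ordered by role with grey lines between roles; bars are exact 95% Poisson intervals and cover counting error only. Isg15 and Ifitm1 stand apart as low in BFP+RFP+ cells, at 13.9 and 7.57 CPM, while Irf9, Ifi47 and Igtp sit close together in all 4 populations.

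Populations were compared as log2 ratios of CPM with a pseudocount of 0.5 UMI, BFP+ against BFP- within each RFP state and RFP+ against RFP- within each BFP state. A gene was called where the ratio was at least 0.5 in size and the pair of populations held at least 50 UMIs of it. This floor was passed by 36 to 38 of the 45 genes, and the remaining 7 to 9 are given by level alone. Brackets hold conditional 95% intervals of counting error, which say nothing of the spread between mice or sorts. The 4 comparisons share populations and are not independent.

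Between BFP states within RFP+, 14 of 36 genes were called lower in BFP+RFP+ cells and 0 higher, against 11.7% and 3.11% of all 10534 genes tested. Their median ratio was -0.40, and that of all genes -0.10. Within RFP-, 11 of 38 were lower in BFP+ cells and 0 higher, against 7.07% and 3.31% of all genes, with medians of -0.22 and -0.07. Between RFP states within BFP+, 12 of 36 were lower in RFP+ cells and 0 higher, against 8.23% and 5.49%, with medians of -0.41 and -0.03. Within BFP-, 7 of 36 were lower in RFP+ cells and 1 higher, against 4.87% and 6.61%, with medians of -0.17 and -0.01. Without barcodes carrying markers of another type, the genes called lower numbered 9 of 30, 5 of 34, 14 of 34 and 6 of 31 in the same order of comparisons, against 10.5%, 6.05%, 7.91% and 4.52% of all genes. Those called higher numbered 0, 3, 0 and 2, against 3.45%, 2.73%, 6.77% and 6.63%.

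Among effectors, Isg15, a ubiquitin-like protein that is joined to other proteins, stood at 13.9, 43.5, 48.2 and 52.0 CPM. BFP+RFP+ cells were low and the other 3 populations lay close together. The ratio was -1.65 (-1.89 to -1.42) against BFP-RFP+ cells and -1.79 (-2.02 to -1.58) against BFP+RFP- cells. Between the BFP states of RFP- cells it was -0.11, and between the RFP states of BFP- cells -0.26. Rsad2, which encodes the antiviral enzyme viperin, stood at 2.69, 7.24, 5.0 and 10.0 CPM. It was lower in BFP+ cells of both RFP states, by -1.42 (-2.00 to -0.89) and -1.0 (-1.32 to -0.68). Ifit1, which binds foreign RNA caps, was scarce at 1.27, 2.03, 2.64 and 2.29 CPM. Reads of Ifit3 and Ifit3b, near-identical copies, cannot be assigned with certainty, and both stayed under 1.2 CPM. Ifit2, of the same family, stood at 0.354, 1.27, 0.815 and 1.01 CPM, and Cmpk2, a mitochondrial nucleotide kinase, at 0.424, 1.52, 0.815 and 1.48 CPM. Ifit3b and Ifi44 were at 0 UMIs in BFP+RFP+ cells, where 3 counts would be 0.212 CPM. Rtp4 stood at 1.91, 2.92, 2.87 and 3.29 CPM, and Xaf1 at 8.84, 9.46, 10.1 and 12.8 CPM.

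The abundant effectors differed less. Bst2, the tetherin that holds budding virus at the membrane, stood at 101, 118, 113 and 114 CPM. Ifi27l2a stood at 71.4, 88.1, 84.9 and 86.8 CPM, with 40.9% of its UMIs in marked barcodes. Usp18, which removes ISG15 and restrains the type I interferon receptor, stood at 37.9, 48.9, 42.0 and 50.5 CPM. None of these 3 reached a ratio of 0.5 in any of the 4 comparisons. Parp14, an ADP-ribosyltransferase, stood at 30.3, 38.0, 38.5 and 47.5 CPM, with ratios of -0.30 to -0.34 in all 4. Trim30a stood at 34.8, 34.2, 30.1 and 28.7 CPM, with ratios of 0.03 to 0.25, and both genes were below the call in each.

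Of the 8 Mx and OAS genes, 4 or 5 passed the floor in each comparison, and Mx1 and Oasl2 differed in their order of levels. Mx1, a dynamin-like antiviral GTPase, stood at 17.4, 24.3, 34.1 and 41.9 CPM, with no overlap of intervals between any 2 populations. The RFP ratio was -0.97 (-1.17 to -0.77) among BFP+ cells and -0.79 (-0.97 to -0.60) among BFP- cells. The BFP states differed less, by -0.48 and -0.30. The oligoadenylate synthetase-like gene Oasl2 stood at 0.990, 4.57, 2.95 and 4.57 CPM. It was low in BFP+RFP+ cells, as Isg15 was, and equal in both BFP- populations. Oasl1 had 0 UMIs in BFP+RFP+ cells and 0.826, 1.10 and 2.02 CPM in the others, and Oas1a, whose close copies may share reads, stood at 1.49 to 3.16 CPM. Mx2 stood at 0.141, 0.445, 0.309 and 0.739 CPM, Oas2 at 0.253 to 0.471 CPM and Oas3 at 0.605 to 1.33 CPM. Eif2ak2, the kinase PKR that halts translation on double-stranded RNA, was flat at 13.6 to 15.5 CPM.

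Of the transcription factors, Irf9 stood at 37.1 to 39.2 CPM and Stat2 at 27.2 to 32.5 CPM. Both are parts of the complex that carries the type I interferon signal, and both were flat. Irf7, which amplifies type I interferon production, stood at 2.97, 9.27, 3.99 and 7.60 CPM and was lower in BFP+ cells by -1.63 and -0.93. Without marked barcodes its level fell to 0.694, 3.44, 2.48 and 1.97 CPM. The ratio was then -2.26 within RFP+, and within RFP- it turned to 0.32.

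The sensors of RNA and DNA were lower in BFP+RFP+ cells to different degrees. Ifi211, of the Ifi200 family, stood at 0.849, 4.32, 3.23 and 10.8 CPM. With Ifi204 and Cxcl9 it was 1 of 3 genes called lower in all 4 comparisons, at -2.30, -1.73, -1.88 and -1.31. Without marked barcodes these ratios were -2.99, -1.77, -2.70 and -1.49. Ifi204 was called at -0.86, -1.35, -0.61 and -1.09, but within RFP- it stood at 0.70 without marked barcodes. Members of this family are close copies, and how reads they share were counted is not stated in the labels. Ifih1, the RNA sensor MDA5, stood at 19.0, 25.5, 25.1 and 29.4 CPM, and Zbp1, a sensor of Z-form nucleic acid, at 14.7, 16.3, 20.3 and 23.0 CPM. Dhx58, the sensor LGP2, was called lower in BFP+RFP+ cells by -1.38 and -0.80.

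The guanylate-binding proteins and immunity-related GTPases attack the vacuoles of intracellular microbes and respond strongly to interferon gamma. Of the 8 genes, 2, 0, 0 and 0 were called lower in the 4 comparisons, against 11.7%, 7.07%, 8.23% and 4.87% of all genes. Called higher were 0, 0, 0 and 1, against 3.11%, 3.31%, 5.49% and 6.61%. With 8 genes, these counts are too small to set the family apart from all genes. Gbp5 stood at 141, 152, 163 and 183 CPM and Gbp2 at 88.0, 79.3, 103 and 111 CPM. Igtp stood at 5.94 to 7.19 CPM and Ifi47 at 10.4 to 11.2 CPM, with intervals that overlapped in all populations. Irgm1 stood at 8.70, 7.18, 7.50 and 9.81 CPM and Gbp3 at 22.4 to 25.8 CPM, both below the call in each comparison. The calls were Gbp7, at -0.80 within RFP+, and Iigp1, at -1.09 within RFP+ and 0.80 within BFP-. Iigp1 had 138 UMIs in all, of which 5 cells held 29.7%. Marked barcodes held 44.3% of the UMIs of Gbp7 and 71.0% of those of Iigp1. Without marked barcodes Iigp1 had 40 UMIs over all populations. That is below the floor in every comparison, so neither call of Iigp1 could be made without them.

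The IFITM proteins block the fusion of viruses with host membranes, and their 3 genes took 3 courses. Ifitm2, the most abundant gene of the list, stood at 204, 248, 234 and 249 CPM, below the call in each comparison. Ifitm1 stood at 7.57, 44.5, 63.7 and 78.3 CPM. It was lower in BFP+RFP+ cells by -2.55 (-2.86 to -2.26) against BFP-RFP+ cells and -3.07 (-3.37 to -2.79) against BFP+RFP- cells, the largest ratios of the genes called. Ifitm1 came from few cells, since 5 of 5023 held 21.9% of its UMIs. Ifitm3 stood at 33.4, 64.0, 45.8 and 86.6 CPM and was lower in BFP+ cells of both RFP states, by -0.94 (-1.10 to -0.78) and -0.92 (-1.02 to -0.81). Without marked barcodes it stood at 17.5, 41.1, 38.6 and 55.4 CPM, with ratios of -1.23 and -0.52 between BFP states and -1.13 and -0.43 between RFP states.

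The chemokines Cxcl9 and Cxcl10 both attract T cells through the receptor CXCR3. Over all kept cells both stood lower in RFP+ cells, but between BFP states their ratios had opposite signs. Cxcl9 stood at 8.98, 14.99, 13.3 and 21.3 CPM, and was called lower in BFP+ and in RFP+ cells in all 4 comparisons. Its 5 highest cells held 38.5% of its UMIs. Without marked barcodes it stood at 5.98, 5.41, 8.34 and 5.84 CPM, and BFP+ cells were then higher by 0.14 and 0.51. Cxcl10 stood at 34.7, 30.7, 47.2 and 44.9 CPM, lower in RFP+ cells by -0.44 within BFP+ and -0.55 within BFP-, and by -0.48 and -0.16 without marked barcodes.

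**Figure D2:**
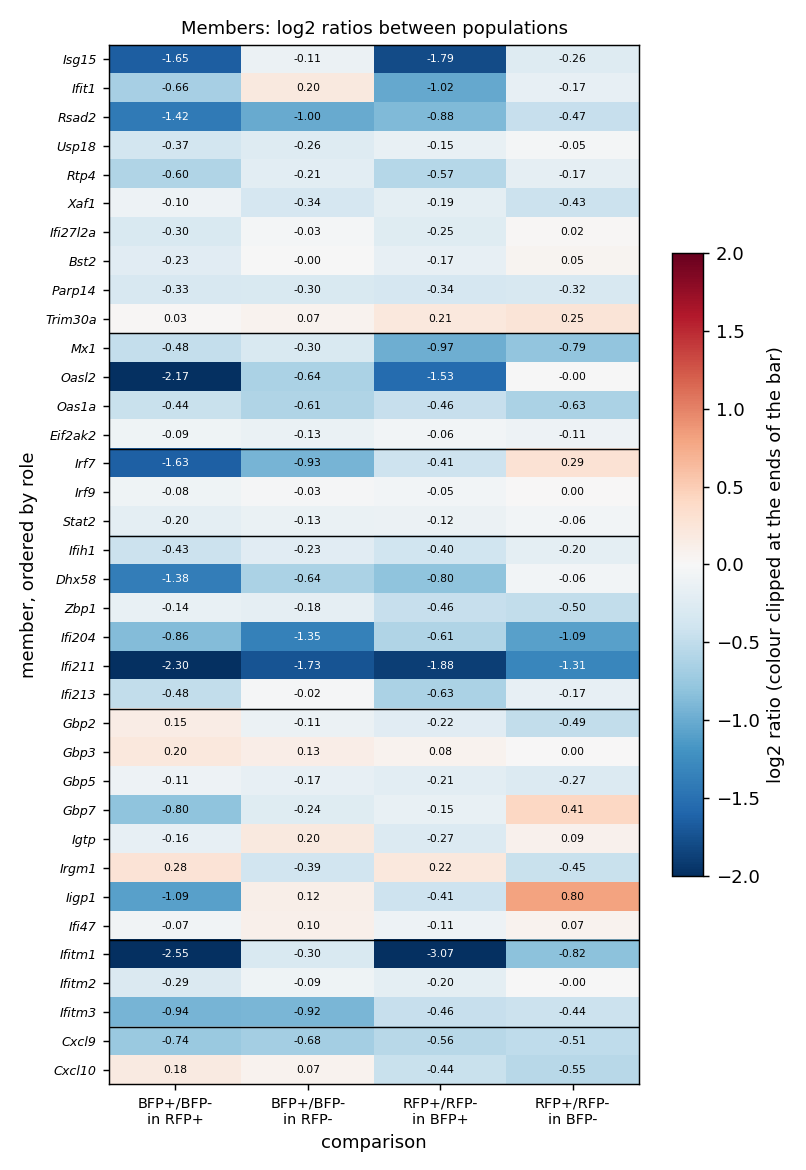
Log2 ratios between populations for the 36 interferon-stimulated genes that passed the floor of 50 UMIs in all 4 comparisons, ordered by role with black lines between roles; each number is the ratio, and blue is lower in the population named first. Isg15 and Ifitm1 are dark blue in the comparisons that include BFP+RFP+ cells, at -1.65 to -3.07, while the guanylate-binding proteins are pale in most squares.

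The 4 tags were then used to order the cells. Within each population cells were split into 3 equal parts by a tag's UMIs, and the highest and lowest parts of all populations, 1673 cells each, were summed and compared. Populations differed in the tags themselves, with median CD11b UMIs of 25, 39, 46 and 55.5 and median CD8a UMIs of 121, 63, 42 and 40. For CD11b the high part had a median of 17079 mRNA UMIs and 7.23% marked barcodes, and the low part 12052 and 14.5%. For CD8a these were 17486 and 7.89% against 11989 and 11.8%.

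With CD11b, 20 of 41 genes were called higher in the high part and 3 lower, against 8.61% and 13.2% of all genes, with medians of 0.47 and -0.09. With CD8a, 0 of 39 were higher and 24 lower, against 4.78% and 11.3%, with medians of -0.67 and -0.09. With CD172a, 10 of 40 were higher and 7 lower, against 6.73% and 15.3%, and with CD301b, 4 of 38 were higher and 9 lower, against 3.49% and 10.9%. Only CD11b and CD8a thus moved the list mostly one way. Without marked barcodes CD11b gave 22 of 34 higher and 0 lower, against 8.35% and 8.58% of all genes, with a median of 0.80. CD8a gave 0 higher and 20 lower of 34, against 5.19% and 9.96%. CD172a gave 6 higher and 3 lower, against 5.21% and 10.0%, and CD301b 7 higher and 5 lower, against 3.67% and 7.45%; with CD301b the larger count thus changed sides.

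The genes that led with CD11b were Ifi204 at 3.98 (3.06 to 5.30), Ifitm3 at 3.64 (3.43 to 3.87), Ifitm1 at 3.14 (2.94 to 3.35), Isg15 at 2.80 (2.60 to 3.01) and Cxcl9 at 2.68 (2.38 to 3.01). Without marked barcodes they stood at 3.38, 2.84, 2.84, 3.32 and 1.06. Oas1a (2.47), Irf7 (2.00), Ifi211 (1.98) and Oasl2 (1.91) followed. Gbp5 (-0.01), Stat2 (0.05), Irf9 (0.09), Usp18 (0.12) and Mx1 (-0.12) were flat across the same cells. The rank with CD11b thus cut through roles, since Ifitm2 stood at 0.87 beside Ifitm3 and Ifitm1, and Mx1 beside Oasl2.

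With CD8a, 24 of 39 genes were called lower and 15 were not called. Mx1 was among those lower, at -1.28 (-1.42 to -1.13). Mx1 was at -1.70, -1.18, -1.20 and -1.22 in the 4 populations taken alone. Isg15 was at -1.78, Ifi211 at -2.39, Oasl1 at -2.52 and Irf7 at -1.41. Gbp3 (0.01), Irf9 (-0.03), Ifitm2 (-0.07) and Gbp5 (-0.08) were flat.

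With CD172a, the receptor SIRP alpha, single genes stood far to both sides. The 7 of 40 genes called lower lay near the share of all genes, 15.3%. Cxcl9 was at 2.78 (2.45 to 3.15), Ifi204 at 2.24 and Cxcl10 at 1.06 (0.92 to 1.20), while Ifitm1 was at -1.63 (-1.74 to -1.52), Ifi213 at -1.17 and Ifi211 at -1.14. Ifitm3 was at 0.61 over all kept cells and at -0.49 without marked barcodes, and Cxcl9 dropped to 1.18. The populations did not share 1 direction. Ifitm1 in high-CD172a and low-CD172a cells stood at 6.46 and 223 CPM in BFP-RFP- cells, a ratio of -5.09, and at 8.61 and 9.31 CPM in BFP+RFP+ cells. With CD301b, a lectin of dermal dendritic cells, Isg15 was at -1.64 and -1.92 in the BFP- populations but at -0.06 and 0.72 in BFP+RFP+ and BFP+RFP- cells.

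**Figure D3:**
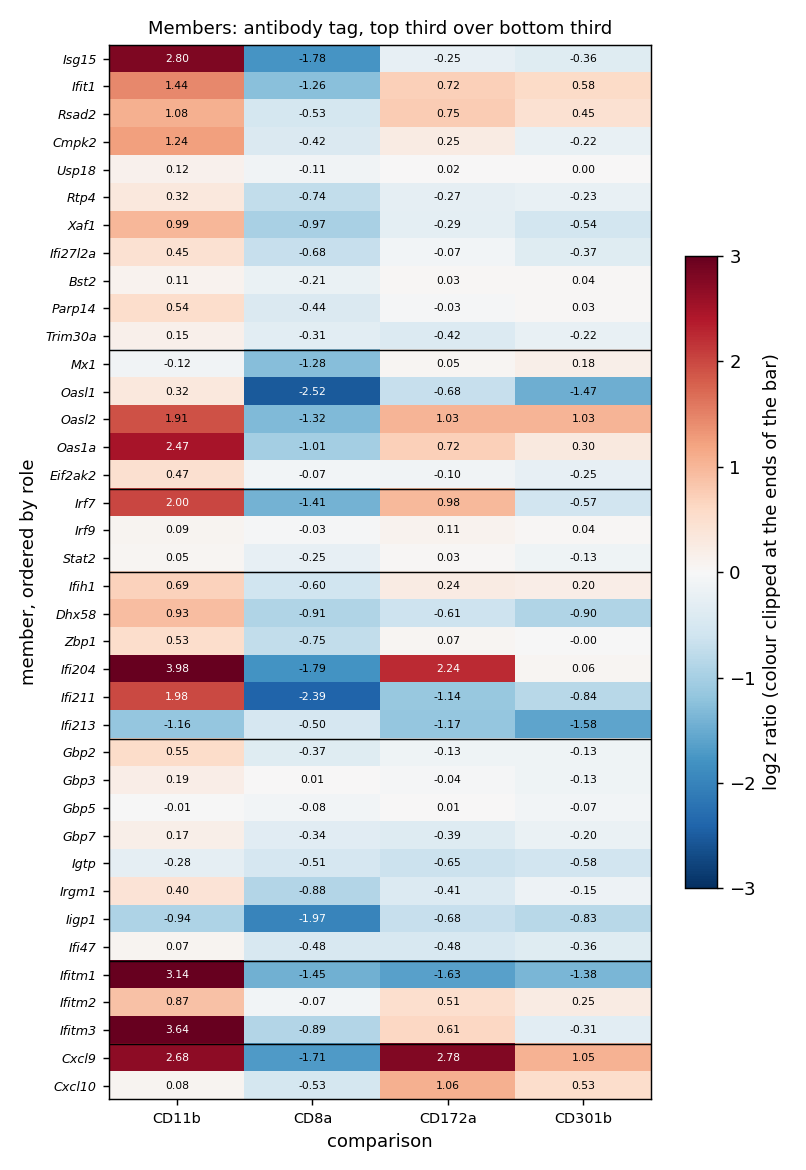
Log2 ratios between the 3 equal parts of cells with most and fewest UMIs of each antibody tag, for the 38 interferon-stimulated genes that passed the floor of 50 UMIs for every tag; each number is the ratio and red is higher in high-tag cells. The CD11b column is red for Isg15, Ifi204, Ifitm1 and Ifitm3, the CD8a column is mostly blue, with Mx1 at -1.28, and CD172a holds both colours, from -1.63 for Ifitm1 to 2.78 for Cxcl9.

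CD11b and the reporters overlap, so levels were also read within CD11b parts and without marked barcodes. This reading was chosen after the values above had been seen. In the lowest CD11b part, Isg15 stood at 9.39, 8.42, 5.57 and 6.22 CPM, and no population was low. In the highest part it stood at 14.5, 64.9, 101 and 54.3 CPM. The shortfall of Isg15 in BFP+RFP+ cells was therefore seen in cells with more CD11b. A separate split used all kept cells, marked barcodes included. Among its 2526 cells at or below the pooled median of 41 CD11b UMIs, the RFP ratio of Isg15 within BFP+ was 0.08. Over all kept cells it was -1.79.

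Ifitm1 showed the same pattern within BFP+, with 4.99 and 5.82 CPM in the lowest part of BFP+RFP+ and BFP+RFP- cells and 13.8 and 120 CPM in the highest. In BFP-RFP- cells it peaked at 158 CPM in the middle part, between 13.5 in the lowest and 64.7 in the highest. Ifitm3 reached 27.4, 74.8, 78.4 and 85.6 CPM in the highest part. The highest part does not mean the same tag level in every population, since its median was 111.5 CD11b UMIs in BFP+RFP+ cells and 191, 244.5 and 278.5 in the others. Mx1 kept the order of the populations in each part, from 19.95, 32.6, 41.2 and 52.2 CPM in the lowest to 19.6, 27.5, 37.3 and 45.5 CPM in the highest.

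**Figure D4:**
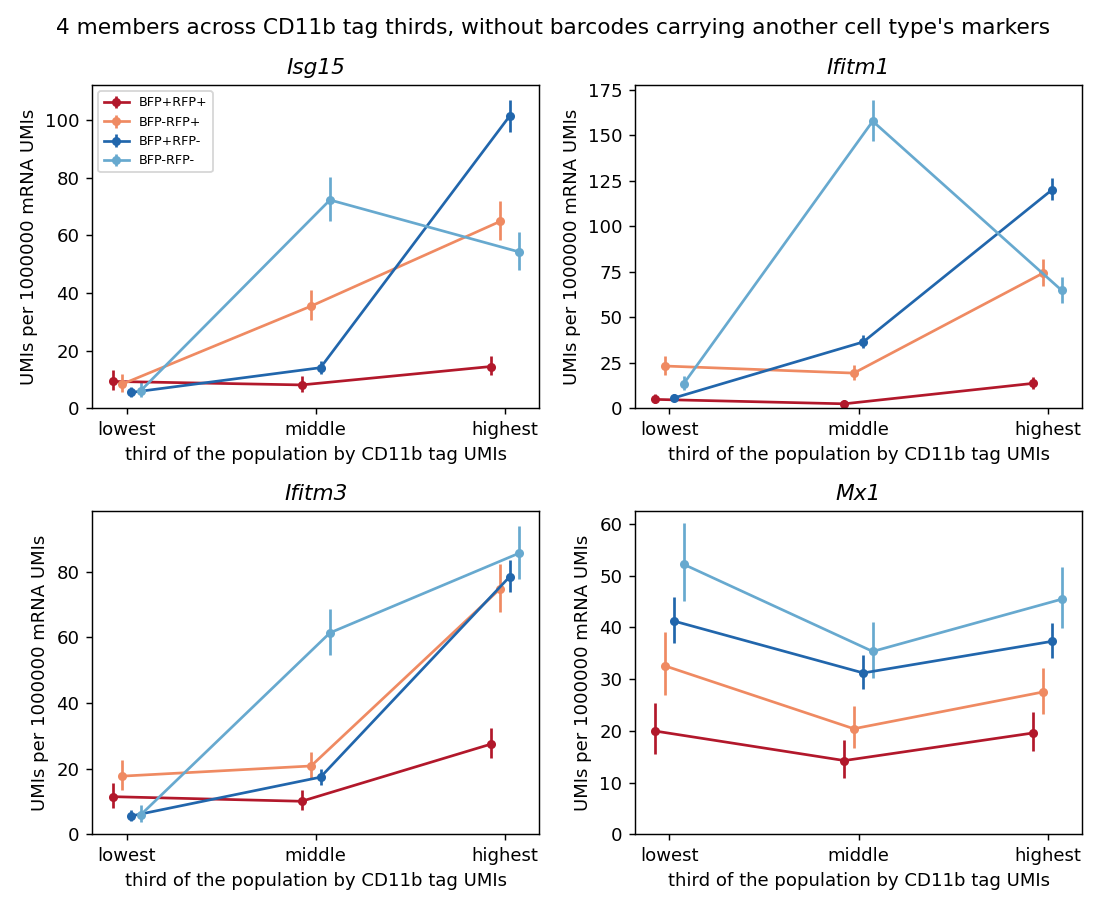
Levels of Isg15, Ifitm1, Ifitm3 and Mx1 in 3 equal parts of each population by CD11b tag UMIs, without barcodes carrying markers of another cell type; points are UMIs per 1000000 mRNA UMIs, bars are exact 95% Poisson intervals and lines join the parts of 1 population. Isg15 lies between 5.57 and 9.39 CPM in every population in the lowest part and spreads from 14.5 to 101 CPM in the highest, whereas Mx1 keeps the populations in 1 order throughout.

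Whether the genes vary as 1 program was then asked per cell. For each gene, the cells of each population were ranked by the mean of ln(1 + UMIs per 10000) over the other 44 genes, and the highest of 5 equal parts was compared with the lowest, 1003 cells each. In these cells 36 of 40 genes were called higher in the highest part and 0 lower, against 10.5% and 5.98% of all 10676 genes, with a median of 1.91 against 0.01. The UMI floor was applied to both parts together, for the listed genes and for all genes alike. A scarce gene could therefore pass it through the highest part alone, and could then hardly be called other than higher. How many of the 36 genes were of this kind was not counted, and the same limit holds for every count made with this score. The parts also differed in median mRNA UMIs (16195 and 11488), in median CD11b UMIs (132 and 24) and in marked barcodes (15.6% and 10.1%), and their part in the ratios was not tested. The count was 27 of 34 without marked barcodes, with a median of 1.46, and 25 of 31 with every cell thinned to 5000 UMIs, against 8.85% and 8.95% of all genes. With both it was 18 of 25, with a median of 0.88, against 7.08%. Ranking within CD11b parts left 34 of 40 called, against 9.62%, and leaving Isg15, Ifitm1 and Ifitm3 out of the score left 33 of 37, against 9.96%.

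The genes differed widely in how far they followed the others. Ifitm1 was at 4.87 (4.56 to 5.22), Isg15 at 4.27 (3.98 to 4.60) and Ifitm3 at 3.92 (3.69 to 4.17), the 4th, 5th and 6th of 6489 genes with at least 1000 UMIs. Ifi27l2a was at 1.93, Ifi47 at 1.89, Xaf1 at 2.15 and Igtp at 1.66. Gbp5 was at 0.24, Usp18 at 0.29, Ifitm2 at 0.40, Stat2 at 0.50 and Irf9 at 0.52. Mx1 stood alone below 0 among the genes with at least 500 UMIs, at -0.24 (-0.43 to -0.05), rank 5710 of 6489, and at -0.21 without marked barcodes and 0.00 with thinning as well. A low detection rate limits every such value.

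The genes outside the list that followed it most were genes of complement, lysozyme and other products of phagocytes. C1qb (6.25), C1qa (5.52), Tgfbi (5.43), Ms4a6c (3.68) and Lyz2 (3.46) led, and 69.7% to 93.3% of their UMIs lay in marked barcodes. Without these barcodes the genes that followed most included Wfdc17 (2.88), Pla2g7 (2.73), Apol7c (2.53), the beta-glucan receptor gene Clec7a (2.53), Phf11b (2.28), Unc93b1, which escorts nucleic acid-sensing Toll-like receptors (2.24), Creb5 (2.20), F11r (2.11) and Aif1 (2.08). The lowest over all kept cells were Bpifa2 (-6.03), Smr3a (-5.80), B3galt1 (-2.86), Ebf1 (-2.28) and Cd79a (-2.13). Except for B3galt1, 68.5% to 95.2% of their UMIs lay in marked barcodes. Without these barcodes the lowest were B3galt1 (-2.51), Tnfsf4 (-2.20), the interleukin 1 receptor gene Il1r1 (-1.86), Sdk1 (-1.78) and Cacnb2 (-1.66). Tnfsf4, the gene of OX40L that carries the BFP knock-in, stood at 52.0 CPM in the highest part and 239 CPM in the lowest.

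Cells were also ranked by 1 role at a time. Cells ranked by the 3 IFITM genes had IFIT and effector genes higher by a median of 0.50 and sensors by 1.11. The GTPases stood at -0.23, near the median of all genes, with 0 of 8 called higher and 2 lower. Of all genes with this score, 10.3% were called higher and 3684 of 10606 lower. Cells ranked by the 8 GTPases had sensors higher by 0.97 and effectors by 1.07. The IFITM genes then stood at 0.06, with 1 of 3 called higher, against 10.9% of all genes. Effectors and sensors thus followed both over all kept cells. The IFITM genes and the GTPases followed each other less, and this changed with the marked barcodes. Without them the GTPases stood at 0.16 in cells ranked by the IFITM genes, with 3 of 7 called higher and 0 lower. Of all genes, 10.0% were called higher there and 3233 of 10090 lower. The IFITM genes in cells ranked by the GTPases then stood at -0.24, and at -0.57 when cells were also ranked within CD11b parts. The IFITM score also stood lower for most other genes, with an all-gene median of -0.27 over all kept cells. The median of the 3 transcription factors was 0.15 to 0.61 whatever role ranked the cells, but Irf7 alone ran from 0.66 with their own score to 1.66 with the GTPases, 3.71 with the sensors and 4.33 with the effectors. Over all pairs of different roles the median was 0.82, and it was 0.47 with thinning.

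**Figure D5:**
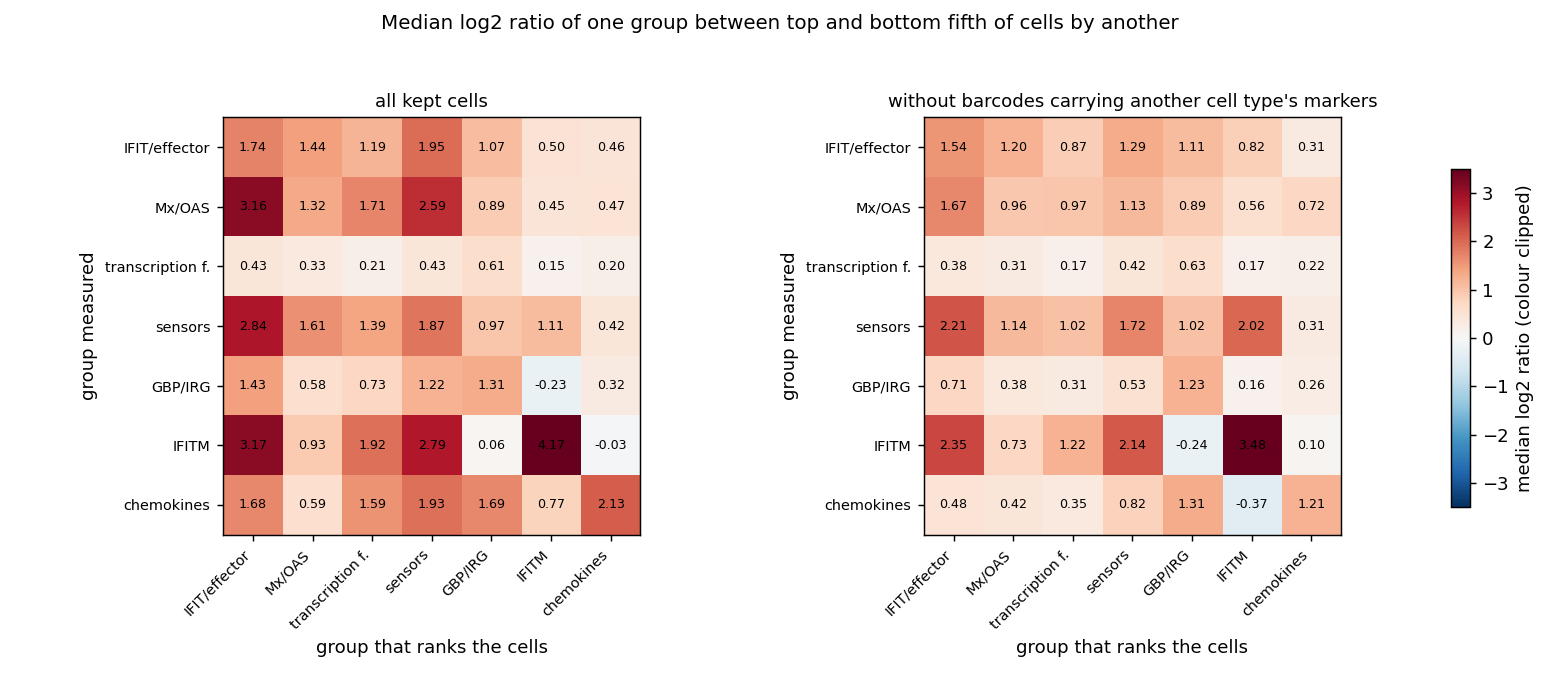
Median log2 ratio of the genes of 1 role (rows) between the highest and lowest of 5 equal parts of cells ranked by another role (columns), over all kept cells and without barcodes carrying markers of another cell type; a gene leaves its own score. The row of the IFITM genes is dark under the effector, sensor and IFITM columns, at 2.79 to 4.17 over all kept cells, and at 0.06 and -0.03 under the GTPase and chemokine columns.

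Cells were also split by whether 1 gene had a UMI; the 8 genes used were chosen after values had been seen. In cells with at least 5000 mRNA UMIs and without marked barcodes, 660 cells with an Isg15 UMI were compared with 3657 without. Ifi204 was higher by 4.67, Ifi211 by 4.08, Ifit1 by 3.76, Ifitm1 by 3.56 and Ifitm3 by 2.59, and in all 26 of 35 genes were called higher, against 8.74% of all genes. The GTPases ranged from Gbp3 at -0.20 and Gbp5 at 0.00 to Ifi47 at 1.68, and Rsad2 stood at 1.21. Mx1 was lower, at -0.63, and Cxcl10 stood at -0.46. Cells with an Ifitm1 UMI (536) had Mx1 at -0.71, Rsad2 at -0.81 and Cxcl10 at -0.68, beside Ifi211 at 4.00, Gbp5 at -0.08, Ifi47 at 0.39 and Gbp7 at 1.02. Cells with an Mx1 UMI (1166) had Ifit1 at 1.74, Rsad2 at 1.02 and Isg15 at 0.57, but Ifitm1 at -0.21 and Ifitm2 at -0.53. Cells with an Isg15 UMI were deeper than those without, at medians of 18695.5 and 14722 mRNA UMIs. Those with and without an Ifitm1 UMI had 18603 and 14834. For Mx1 the medians were 15004.5 and 15295. The part of depth in these ratios was not tested.

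Correlations between pairs of single genes were weak throughout. Over 4646 cells thinned to 5000 UMIs, the Spearman correlation of the 276 pairs of the 24 genes with at least 500 UMIs had a median of 0.024, with 0.047 for pairs of 1 role and 0.021 for other pairs. Only 16 pairs passed 0.1 and none passed -0.1. The highest were Ifitm1 with Ifitm3 at 0.28, Isg15 with Ifitm3 at 0.25, Isg15 with Ifitm1 at 0.21 and Igtp with Ifi47 at 0.20. The lowest was Mx1 with Ifitm2, at -0.09. The pairs share cells, libraries and sparse counts, and these are descriptions.

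A small set of cells held many of the genes at once. After thinning, the median cell showed 4 of the 45 genes and the highest 26. At least 10 genes were seen in 93 of 4646 cells (2.00%, exact Clopper-Pearson interval 1.62% to 2.45%), by population in 7 of 786, 19 of 900, 38 of 2032 and 29 of 928. The shares were 0.891% (0.359% to 1.83%), 2.11%, 1.87% and 3.13% (2.10% to 4.46%). Of these cells 2, 11, 28 and 20 were without markers of another type. Thinning left out 56, 82, 153 and 86 shallower cells. Unthinned, 10 genes were reached by 21.4%, 22.7%, 27.2% and 24.5% of cells. Of the 93 cells, 32 carried markers of another type, and the 93 had a median of 249 CD11b UMIs.

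Among the 61 such cells without markers of another type, scarce and abundant genes alike were seen more often than in other cells. Isg15 was seen in 73.8% of them and in 6.93% of the 4256 other unmarked cells, Ifitm3 in 68.9% and 8.53%, Ifi47 in 37.7% and 2.47%, and Ifit1 in 21.3% and 0.399%. Of the abundant genes, Bst2 was seen in 73.8% and 39.1%, Ifi27l2a in 52.5% and 16.9%, Gbp5 in 68.9% and 50.6%, and Ifitm2 in 77.0% and 52.6%. Mx1 was seen in 29.5% and 12.7%. At least 15 genes were seen in 0, 4, 9 and 9 cells of the 4 populations. The 0 of 786 BFP+RFP+ cells has an interval that reaches 0.468%. Since the cells were chosen by these genes, the shares are a description of them alone.

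Other genes of the pathway were taken from lists written with earlier results of these data known. None of 10 interferon genes reached 50 UMIs in any pair. Ifnb1 had 1 UMI in all cells, Ifng 37 and Ifnk 4, while the 4 Ifna genes listed had 0. Of the 20 genes for interferon receptors and their signalling, 19 or 20 passed the floor, and 0 or 1 were called in either direction in each population comparison, with medians of -0.08 to 0.06. Irf8, a factor of dendritic cell development, was the one called lower, at -0.82 between RFP states within BFP+. Socs3, a feedback inhibitor, was higher in RFP+ cells by 0.63 and 0.66, and Ifnlr1, a receptor chain for interferon lambda, was higher in BFP+ cells within RFP- by 1.34, on 63 and 10 UMIs. Of 67 other interferon-stimulated genes, 14 of 52, 10 of 56, 15 of 55 and 12 of 54 were called lower in the 4 comparisons, against 11.7%, 7.07%, 8.23% and 4.87% of all genes, and 0, 1, 0 and 2 higher. Their medians were -0.30, -0.16, -0.26 and -0.17. With the score of the 45 genes, 38 of 55 of these were called higher and 0 lower, against 10.5% of all genes higher, with a median of 0.98. Ifi205 (5.50) and Ifi207 (4.79) led them, and among the 12 upstream sensors Rigi, the RNA sensor RIG-I, stood at 2.26.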

How the data were processed

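The mRNA, antibody-tag and hashtag libraries of 1 capture were read as the UMI counts the authors deposited, raw whole numbers in 1 matrix that, per the file headers, came from Cell Ranger 7.0.0. The submitters' processing notes name build GRCm39 (mm39); settings for alignment, strand and cell calling were not given in the sources used here. Total mRNA UMIs of the kept cells were 14140272, 15746616, 35590897 and 14877282 in the order of the report.

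Populations were assigned by a hashtag share of at least 80%, which 5380 barcodes passed and 699 failed. Of those that passed, 4.10%, 8.22%, 3.32% and 13.5% then failed the UMI or mitochondrial limit, in the same order. Doublets across populations were removed by the share, and those within a population were not. UMIs were summed and scaled per 1000000, with exact Poisson and conditional binomial 95% intervals for counting error and a pseudocount of 0.5 UMI (Python 3.11.15, numpy 2.4.6, scipy 1.17.1, pandas 2.3.3). The calculations were tested on simulated data. The members and lists were chosen with earlier results of these data known.

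Named genes: every member is accounted for. Those with at least 500 UMIs have levels in all populations, and ratios are given for those called in both strata and for the 5 most abundant. Outside the list, the 10 highest and 5 lowest genes by the member score were taken among those with at least 1000 UMIs, leaving out mitochondrial, ribosomal and antigen receptor genes and models without a symbol. A gene that this rule takes is not reported here. Genes named for contrast were chosen after their values were seen. Alternatives changed the hashtag share, depth, mitochondrial limit, UMI floor, call size, cell weights, marked barcodes, extreme cells, CD11b range, tag scaling and parts. Thinning without marked barcodes, ranking within CD11b parts and the score without Isg15, Ifitm1 and Ifitm3 were added after seeing the data.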

Additional observations from a re-analysis of the deposited data

How the results depend on the processing

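No paired analysis was possible because no replicate numbers link the 4 populations, each of which is a single sample. Counts here are genes called lower in the 4 population comparisons, in the order of the report, where the values were 14, 11, 12 and 7. Without marked barcodes the first 2 were 9 of 30 and 5 of 34, against 10.5% and 6.05% of all genes. Among cells with fewer CD11b UMIs than the pooled median or equal to it, the first 3 were 4, 5 and 5, and the median ratio between RFP states within BFP+ was -0.0403 instead of -0.41. Among cells above it, the first was 9. With a floor of 200 UMIs the first 3 were 4, 5 and 5, and with a floor of 1 UMI the first was 23. With a call at log2 1 they were 8, 3, 5 and 2, against 3.26%, 1.99%, 2.10% and 0.797% of all genes. Leaving out the 5 cells of each population with most UMIs of these genes gave 6 in the second. A hashtag share of 90% gave 12 in the last. Apart from the call at log2 1 and the removal of marked barcodes, these counts are given without the share of all genes. The number of genes tested can change with the setting, so such counts alone do not show a change in the listed genes.

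The median with CD11b was 0.80 without marked barcodes instead of 0.47. That with CD172a, reported as -0.03, turned to 0.0099 with at least 5000 mRNA UMIs, 0.00587 with a floor of 200 UMIs, 0.0773 after centring on all genes and 0.018 after dividing tags by mRNA UMIs. The last also turned that with CD301b from -0.14 to 0.0758. The genes following the score numbered 36 of 40 over all kept cells. In cells with both reporters, RFP alone and neither, each taken alone, they numbered 14 of 24, 23 of 28 and 23 of 28. The share of all genes in these single populations is not given. With thinning and without marked barcodes they numbered 18 of 25, against 7.08% of all genes. The median between roles, 0.82, was 0.47 with thinning, 0.35 with thinning and without marked barcodes, 0.41 in BFP+RFP+ cells alone and 1.32 with 10 parts in place of 5.

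Single genes turned as follows. Without marked barcodes, the BFP ratios of Cxcl9 were 0.14 and 0.51, those within RFP- of Ifi204 and Irf7 were 0.70 and 0.32, and Ifitm3 with CD172a was -0.49. Among cells with less CD11b, the BFP ratios of Cxcl9 were 0.26 and 0.11 and the RFP ratio of Isg15 within BFP+ was 0.0825. With each cell weighted equally, the RFP ratios of Cxcl9 were 0.00945 and 0.11 and that of Rtp4 within BFP+ was 0.0569. Without the 5 highest cells the RFP ratio of Cxcl9 within BFP- was 0.36. After dividing tags by mRNA UMIs, Ifit2 and Iigp1 with CD11b were 0.15 and 0.0599, Oasl2 with CD172a was -0.0197, and Ifi213, Igtp, Iigp1 and Irf7 with CD301b were 0.43, 0.0201, 0.13 and 0.0108. The other values for single genes and the remaining counts of called genes moved in 178 cases and did not in 988. A single gene moved when it left its interval of counting error, and a count when it changed by more than a set factor. The cause of these changes was not tested. The 9 genes with fewer than 100 UMIs are limited by depth.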
